A study of Arabidopsis thaliana with 24 samples.

Results

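Small RNA of mkkk17 seedlings treated with abscisic acid (ABA) was compared with small RNA of wild-type (WT Col-0) seedlings given the same treatment. The comparison rests on 6 of the 24 libraries of the series, namely the 3 labelled mkkk17-ABA and the 3 labelled WT-ABA, and uses all 350 mature miRNA sequences of the deposited tables. The mkkk17 line carries a T-DNA insertion in the gene of the kinase MAPKKK17, in the Columbia background, and the WT line is Col-0 without an insertion. Plants of both genotypes were 2 weeks old and received 100 µM ABA for 4 h. The matching mock libraries (mkkk17-Mock and WT-Mock, 3 each) and the ABA libraries of the T-DNA lines mkkk18 and abi1td (mkkk18-ABA and abi1td-ABA, 3 each) are used below where a difference is set against them. The mutant is represented by 1 insertion line, seedlings were used, and the tables hold no mRNA, so the level of the MAPKKK17 transcript could not be read from them. The methods of the study describe the replicates of a group as independent biological samples.

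ABA is the plant hormone of drought and salt stress. It is bound by receptors that then hold back phosphatases such as ABI1, which frees SnRK2 kinases and, further down, MAP kinase cascades that include MAPKKK17 and MAPKKK18. Plant miRNAs are cut by DICER-LIKE1 from a hairpin, whose arms give a 5p and a 3p strand, and the strand loaded into an ARGONAUTE protein guides the cutting or silencing of matching mRNAs. The other strand (the passenger strand) is usually lost.

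The sequences on which the comparison turns are given here as the deposited tables list them, 5′ to 3′, with U for T and with the seed (bases 2 to 8) in capitals. The first lines show miRNAs that were higher in mkkk17-ABA libraries, with miR161.1 and miR397a as the near relatives of miR161.2 and miR397b that were not called.
miR161.2: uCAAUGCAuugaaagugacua
miR161.1: uGAAAGUGacuacaucggggu
miR846-3p: uUGAAUUGaagugcuugaauu
miR447a.2-3p: uAUGGAAGaaauuguaguauu
miR393a-3p: aUCAUGCUaucucuuuggauu
miR397b: uCAUUGAGugcaucguugaug
miR397a: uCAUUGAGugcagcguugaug
miR403-3p: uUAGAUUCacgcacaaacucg
miR157b-5p: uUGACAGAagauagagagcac
The next lines show miRNAs that were lower in mkkk17-ABA libraries after scaling, among them the 3p strand of the miR157a and miR157b hairpins and the pair miR166 and miR165, which share a seed.
miR157a-3p: gCUCUCUAgccuucugucauc
miR472-3p: uUUUUCCUacuccgcccauacc
miR166e-3p: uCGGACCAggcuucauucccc
miR165b: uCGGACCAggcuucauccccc
An exact search in TAIR10.1 placed miR161.2 at chr1:17825722-17825742 and miR161.1 at chr1:17825731-17825751, both on the plus strand of the MIR161 gene (AT1G48267), so that the pair shares 12 bases of the same hairpin arm with starts 9 bases apart. The same search placed miR846-3p at chr1:22577662-22577682 on the plus strand in MIR846 (AT1G61226), miR397b at chr4:7878730-7878750 on the minus strand in MIR397b (AT4G13555) and miR393a-3p at chr2:16652205-16652225 on the plus strand in MIR393a (AT2G39885). All of these are annotated mature miRNAs within MIR genes. The entry miR157a-3p lies in MIR157a (chr1:24913205-24913225, minus strand) and in MIR157b (chr1:24921175-24921195, plus strand), and the entry miR166e-3p stands for 7 identical mature miRNAs of the MIR166a to MIR166g genes, whose reads cannot be told apart.

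The deposited values are RPM, a read count set against the total reads of its library. The summed RPM of all listed miRNAs was 69641, 71634 and 48874 in mkkk17-ABA libraries and 33399, 54118 and 53472 in WT-ABA libraries. The means of 63383 ± 12605 RPM in mkkk17-ABA and 46996 ± 11780 RPM in WT-ABA (SD, n = 3 each) did not differ beyond the spread of the libraries (exact permutation test, two-sided, p = 0.3, where 0.1 is the smallest p of this design). Without the most abundant entry, miR166e-3p, the ranges no longer overlapped, with means of 39601 ± 8021 RPM in mkkk17-ABA and 22253 ± 4413 RPM in WT-ABA and the smallest possible p of 0.1. Because so many miRNAs had a higher RPM in mkkk17-ABA, the values were scaled by the median of ratios over miRNAs seen in all 6 libraries, which lowered mkkk17-ABA against WT-ABA by 0.84 on the log2 scale. The fold changes below are log2(scaled RPM + 0.5) in mkkk17-ABA minus that in WT-ABA, with their standard error (SE), unless the deposited RPM is named, and they understate the change of miRNAs near 0. From the steps between the deposited values, the totals to which RPM refer were estimated at about 8100000, 6510000 and 7520000 reads in mkkk17-ABA libraries and at about 6570000 and 5540000 reads in WT-ABA libraries 2 and 3, while that of WT-ABA library 1 could not be resolved from the deposited values alone and was at least about 9630000 reads. In the resolved libraries 3 reads were thus worth 0.370 to 0.541 RPM, and values under that are within counting error of 0.

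The WT-ABA libraries stood apart in the whole series, and this bears on every result below. In each library the median log2 deviation from the mean of the 24 libraries was taken over AU-rich miRNAs (GC under 40%, 31 entries) and over GC-rich miRNAs (GC over 50%, 41 entries). The difference of the medians was 0.57, 0.28 and 0.18 in mkkk17-ABA libraries, against -1.01, -1.89 and -2.10 in WT-ABA libraries. The mock libraries of all genotypes lay between -0.19 and 0.73, and mkkk17-Mock library 1 was their lowest. In the ABA libraries of the other mutants, library 1 of mkkk18-ABA (-0.98) and library 2 of abi1td-ABA (-1.73) lay near or within the range of WT-ABA, and their other 4 libraries lay between -0.01 and 0.50. Whether this shift in base composition arose in the plants or during library preparation cannot be told apart, because no label gives a batch.

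**Figure D1:**
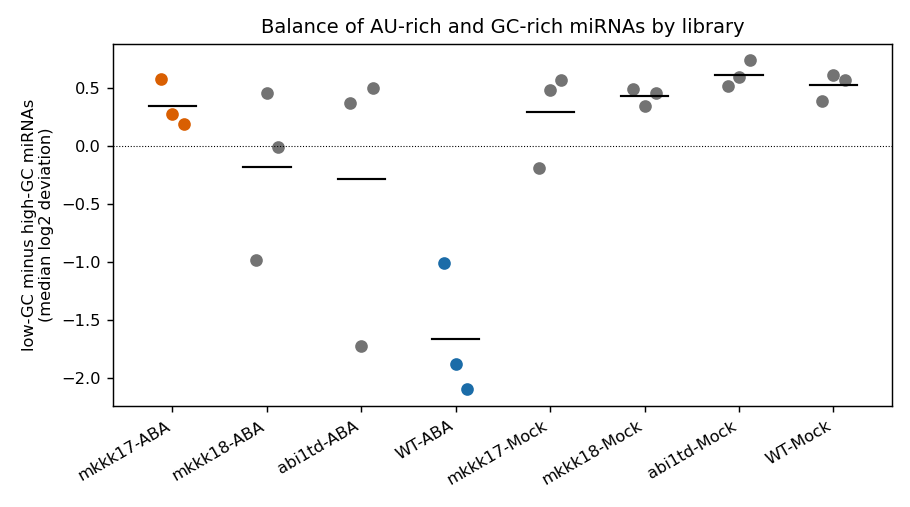
Median log2 deviation of AU-rich miRNAs minus that of GC-rich miRNAs (y axis) in each of the 24 libraries by group (x axis), with bars at the group means. The 3 mkkk17-ABA libraries lie between 0.18 and 0.57, above all 3 WT-ABA libraries, which lie between -2.10 and -1.01.

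Of the 350 sequences, 131 had a mean of at least 1 RPM over the 6 libraries and were tested. At an adjusted p-value under 0.05, 31 miRNAs (23.7%) were higher and 12 (9.16%) were lower in mkkk17-ABA than in WT-ABA, together 32.8% of those tested. The median log2 fold change over all 131 was 0.13, with a range from -1.64 to 3.80. Of the 31 higher calls, 30 had mkkk17-ABA libraries that lay all above WT-ABA libraries after scaling, and so did all 31 in deposited RPM. Of the 12 lower calls, 11 had libraries that did not overlap after scaling, but 1 alone, miR157a-3p, in deposited RPM. In deposited RPM without scaling, 61 miRNAs were called higher and none lower, with 70 at an unadjusted p under 0.05 in either direction and a median log2 fold change of 0.92. The lower calls are therefore statements about a miRNA relative to the others of its library. With a correction of each library for GC content, 9 miRNAs were called higher and 9 lower, and 12 of these 18 were among the 43.

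**Figure D2:**
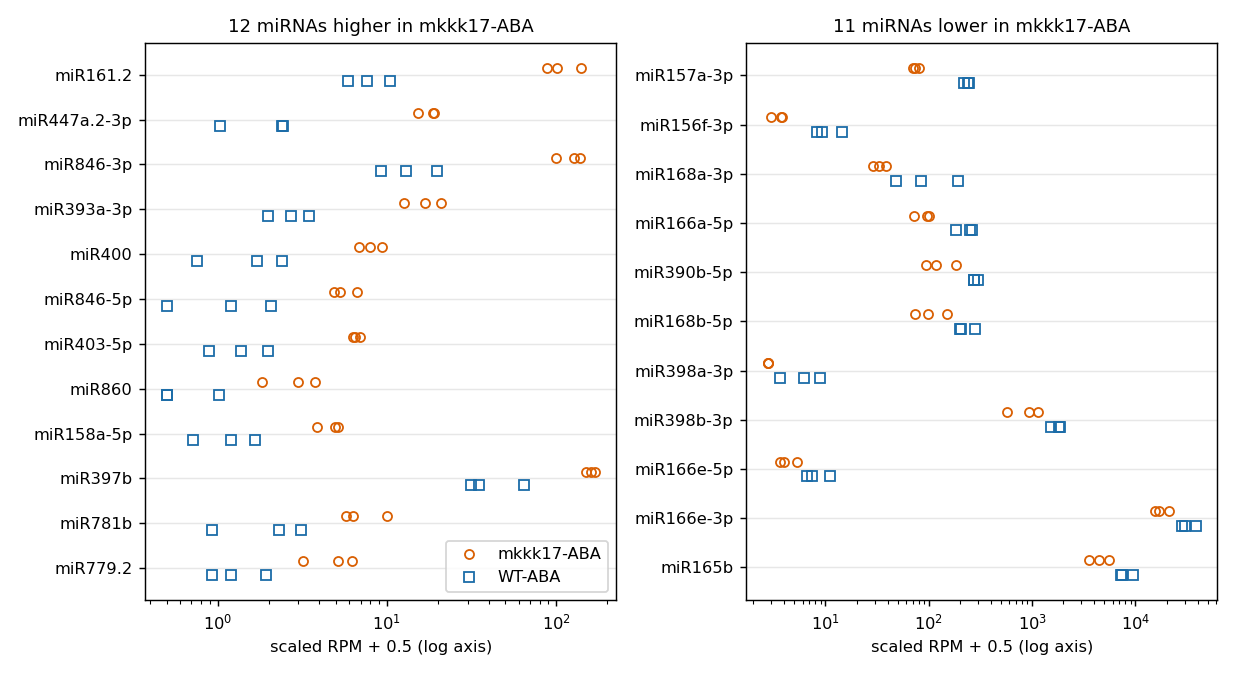
Scaled RPM + 0.5 (x axis, log scale) in each library for the 12 miRNAs with the largest positive and the 11 with negative fold changes among called miRNAs whose groups did not overlap. Circles are mkkk17-ABA libraries and squares are WT-ABA libraries, 3 each; in every row the groups are apart, and miR161.2 shows the widest gap, with at least 88.4 scaled RPM in mkkk17-ABA and at most 9.91 in WT-ABA.

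The largest difference was found among the regulators of pentatricopeptide repeat (PPR) proteins, which process organelle RNA. Of the 3 miRNAs of this list tested, 2 were higher and none lower, with a median log2 fold change of 2.45. Over all tested miRNAs, 23.7% were higher and 9.16% lower. miR161.2 had 123.9, 143.3 and 167.6 RPM in mkkk17-ABA libraries, against 5.7, 5.5 and 5.1 RPM in WT-ABA libraries. The groups were far apart, and the log2 fold change was 3.80 ± 0.35 (SE, adjusted p = 1.01e-12), or 2.37 with the GC correction. miR161.1, cut from the same arm of the same hairpin, had 408.9, 726.4 and 461.6 RPM in mkkk17-ABA libraries and 296.2, 495.8 and 396.5 RPM in WT-ABA libraries. Its groups overlapped, and its log2 fold change was -0.42 ± 0.31 (adjusted p = 0.31). Within each library the log2 ratio of miR161.2 to miR161.1 was -1.72, -2.34 and -1.46 in mkkk17-ABA and -5.58, -6.37 and -6.15 in WT-ABA, a difference of 4.19. This pair was set side by side after its values were seen, so the ratio is a description without a test. The GC content of the pair differs as well, with 33.3% in miR161.2 and 47.6% in miR161.1. miR400, another regulator of PPR mRNAs, had 7.8, 12.1 and 10.6 RPM in mkkk17-ABA libraries and 0.7, 0.2 and 1.8 RPM in WT-ABA libraries (log2 fold change 2.45 ± 0.41, adjusted p = 7.50e-06). The GC correction ended that call (0.62, adjusted p = 0.32).

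Both strands of the miR846 hairpin, whose miRNA targets mRNAs of jacalin-related lectins, were higher in mkkk17-ABA. miR846-3p had 169.4, 205.1 and 119.4 RPM in mkkk17-ABA libraries, against 11.1, 9.6 and 8.3 RPM in WT-ABA libraries, a log2 fold change of 3.18 ± 0.35 (adjusted p = 2.43e-10). miR846-5p had 5.9, 7.1 and 7.4 RPM in mkkk17-ABA libraries and 0.4, 1.2 and 0.0 RPM in WT-ABA libraries, a log2 fold change of 2.38 ± 0.45 (adjusted p = 4.29e-05). In neither strand did the groups overlap, and both calls held with the GC correction (1.35 and 1.36 on the log2 scale). The third tested member of this list, miR842, had a log2 fold change of 0.09 ± 0.41 (adjusted p = 0.86). miR447a.2-3p, of a family that targets an mRNA related to 2-phosphoglycerate kinase, had 22.5, 24 and 22.2 RPM in mkkk17-ABA libraries and 1.1, 1.5 and 0.5 RPM in WT-ABA libraries. Its libraries were close within each group and far apart between groups, with a log2 fold change of 3.27 ± 0.38 (adjusted p = 6.84e-10), or 1.04 with the GC correction (adjusted p = 0.041). It is the tested entry of the 4 listed for the family.

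Among 7 tested miRNAs that act on the silencing machinery itself, 2 were higher, 2 lower and 3 not called, with a median log2 fold change of -0.41, beside 23.7% higher and 9.16% lower over all tested. Only miR403-3p and miR168a-3p of these 4 calls held with the GC correction. Both strands of miR403, which targets AGO2, were higher. The guide strand miR403-3p had 1487, 2162 and 1515 RPM in mkkk17-ABA libraries, against 397.1, 250.5 and 233.6 RPM in WT-ABA libraries, a log2 fold change of 1.73 ± 0.33 (adjusted p = 3.83e-05) that stayed called with the GC correction (1.12). The passenger strand miR403-5p had 7.9, 9.7 and 7.0 RPM in mkkk17-ABA libraries and 0.5, 0.3 and 1.4 RPM in WT-ABA libraries, a log2 fold change of 2.30 ± 0.41 (adjusted p = 1.75e-05), which the GC correction reduced to 0.36 (adjusted p = 0.59). For miR168, which targets AGO1, the passenger strand miR168a-3p had 46.6, 52.7 and 34.1 RPM in mkkk17-ABA libraries and 110.3, 37.1 and 79.7 RPM in WT-ABA libraries. These overlap as deposited, and after scaling the log2 fold change was -1.48 ± 0.37 (adjusted p = 0.0014). The guide strand miR168b-5p had 185.6, 159.1 and 87.0 RPM in mkkk17-ABA libraries and 159.3, 155.4 and 192.8 RPM in WT-ABA libraries, a log2 fold change of -1.13 ± 0.34 after scaling (adjusted p = 0.0068). That call was lost without mkkk17-ABA library 3 (-0.84, adjusted p = 0.0503) and with the GC correction (-0.13, adjusted p = 0.84).

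Among the auxin regulators (miR160 and miR167, which target auxin response factors, and miR393, which targets the TIR1/AFB receptors), 2 of 11 tested were higher and none lower, with a median log2 fold change of -0.12. Both shares were below those over all tested miRNAs (23.7% and 9.16%). Both calls were 3p strands of miR393 hairpins. miR393a-3p had 25.1, 26.4 and 14.6 RPM in mkkk17-ABA libraries, against 1.7, 1.7 and 1.4 RPM in WT-ABA libraries, a log2 fold change of 2.64 ± 0.37 (adjusted p = 8.12e-08). miR393b-3p, which differs from it at 1 position, had 69.9, 62.2 and 42.4 RPM in mkkk17-ABA libraries and 10.4, 14.3 and 11 RPM in WT-ABA libraries, a log2 fold change of 1.41 ± 0.35 (adjusted p = 0.0012). With the GC correction miR393a-3p remained called (1.21) and miR393b-3p did not (0.39). The strand that targets the receptors, miR393a-5p, had 94.2, 80.5 and 91.4 RPM in mkkk17-ABA libraries and 67.3, 34.1 and 68.6 RPM in WT-ABA libraries, which overlapped after scaling (log2 fold change -0.12 ± 0.36, adjusted p = 0.82).

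The phase change miRNAs are miR156 and miR157, which hold down SPL factors in young plants, and miR172, which holds down AP2-like factors. Of 13 tested, 3 were higher and 2 lower, with a median log2 fold change of -0.24, so that the share of higher calls was close to the 23.7% over all tested miRNAs. The guide strand miR157b-5p had 887.5, 811.2 and 603.6 RPM in mkkk17-ABA libraries, against 191.4, 163.9 and 171.2 RPM in WT-ABA libraries. Its passenger strand miR157a-3p went the other way, with 98.6, 113.3 and 87.3 RPM in mkkk17-ABA libraries and 126.4, 183.1 and 228.7 RPM in WT-ABA libraries. Both strands were free of overlap already as deposited. After scaling the log2 fold changes were 1.28 ± 0.32 for miR157b-5p (adjusted p = 0.0014) and -1.64 ± 0.33 for miR157a-3p (adjusted p = 9.13e-05), and with the GC correction miR157a-3p stayed called (-1.45) while miR157b-5p did not. miR156f-3p, a passenger strand, had 3.0, 5.2 and 3.9 RPM in mkkk17-ABA libraries and 5.0, 10.8 and 7.4 RPM in WT-ABA libraries, a log2 fold change of -1.59 ± 0.37 after scaling (adjusted p = 6.48e-04). miR172a had 22.4, 15.8 and 14.8 RPM in mkkk17-ABA libraries and 3.5, 2.7 and 3.1 RPM in WT-ABA libraries, without overlap, and a log2 fold change of 1.54 ± 0.36 (adjusted p = 7.20e-04), a call that ended with the GC correction (0.53, adjusted p = 0.28).

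Of the 9 copper miRNAs tested, which target laccases, copper superoxide dismutases and plantacyanin, 3 were higher and 2 lower, with a median log2 fold change of 0.22, beside 23.7% and 9.16% over all tested. miR397b, a regulator of laccases, had 196.1, 274.7 and 179.0 RPM in mkkk17-ABA libraries, against 19.9, 49.8 and 29.2 RPM in WT-ABA libraries. The groups did not overlap, and the log2 fold change was 1.94 ± 0.35 (adjusted p = 1.71e-05), or 1.33 with the GC correction (adjusted p = 0.0093). miR397a, which differs from miR397b at 1 position outside the seed, had 5.8, 15 and 6.3 RPM in mkkk17-ABA libraries and 2.0, 4.9 and 6.0 RPM in WT-ABA libraries, and its groups overlapped after scaling (log2 fold change 0.22 ± 0.37, adjusted p = 0.71). The log2 ratio of miR397b to miR397a was 4.96, 4.15 and 4.72 in mkkk17-ABA libraries and 3.03, 3.22 and 2.19 in WT-ABA libraries, without overlap, which is likewise a description of a pair chosen after its values were seen. miR857, a regulator of a laccase, was near the detection floor, with 1.9, 2.6 and 1.1 RPM in mkkk17-ABA libraries and 0.0, 0.0 and 0.4 RPM in WT-ABA libraries (adjusted p = 0.019). Its call was lost without WT-ABA library 1 (adjusted p = 0.054) or library 2 (adjusted p = 0.064), and its direction turned with the GC correction (-0.25, adjusted p = 0.82).

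miR398 targets the copper superoxide dismutases, and its strands differed. The passenger strand miR398c-5p had 16.9, 21 and 20.8 RPM in mkkk17-ABA libraries and 3.8, 7.3 and 4.3 RPM in WT-ABA libraries, a log2 fold change of 1.09 ± 0.36 (adjusted p = 0.013) that was lost without WT-ABA library 3 (adjusted p = 0.072) or mkkk17-ABA library 3 (adjusted p = 0.053). The guide strand miR398b-3p had 1407, 1519 and 680.9 RPM in mkkk17-ABA libraries and 1054, 1184 and 1745 RPM in WT-ABA libraries. It was lower only relative to the other miRNAs (log2 fold change -1.03 ± 0.30 after scaling, adjusted p = 0.0059), and not without mkkk17-ABA library 3 (-0.70, adjusted p = 0.072). miR398a-3p, of the same seed, had 2.8, 3.7 and 2.7 RPM in mkkk17-ABA libraries and 1.8, 6.5 and 5.4 RPM in WT-ABA libraries (log2 fold change -1.08 ± 0.39 after scaling, adjusted p = 0.025). That call was lost when any library but WT-ABA library 1 was left out (adjusted p between 0.06 and 0.167). The GC correction ended all 3 miR398 calls, with log2 fold changes of 0.48 for miR398c-5p, -0.44 for miR398b-3p and -0.89 for miR398a-3p (adjusted p between 0.0929 and 0.324).

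The regulators of HD-ZIP III factors of leaf polarity, miR165 and miR166, made up a large part of every library. miR166e-3p alone took 36.9%, 37.9% and 37.9% of the summed RPM in mkkk17-ABA libraries and 48.6%, 55.0% and 52.8% in WT-ABA libraries. In deposited RPM it was not lower, with 25674, 27142 and 18529 RPM in mkkk17-ABA libraries and 16216, 29775 and 28240 RPM in WT-ABA libraries. After scaling the log2 fold change was -0.86 ± 0.24 (adjusted p = 0.0032), and with the GC correction it was 0.14 (adjusted p = 0.76). miR165b, which shares its seed, had 6803, 7177 and 4275 RPM in mkkk17-ABA libraries and 4146, 7251 and 7004 RPM in WT-ABA libraries (log2 fold change -0.84 ± 0.27 after scaling, adjusted p = 0.010, and 0.57 with the GC correction). That call was lost without mkkk17-ABA library 2 (adjusted p = 0.069) or library 3 (adjusted p = 0.080). The passenger strand miR166a-5p had 122.4, 156.2 and 85.4 RPM in mkkk17-ABA libraries and 106.0, 192.0 and 249.1 RPM in WT-ABA libraries (log2 fold change -1.38 ± 0.33 after scaling, adjusted p = 8.97e-04). The passenger strand miR166e-5p, with 4.3, 7.7 and 3.7 RPM in mkkk17-ABA libraries and 3.5, 8.1 and 6.5 RPM in WT-ABA libraries, was close to the threshold (log2 fold change -0.94 ± 0.37 after scaling, adjusted p = 0.041) and missed it without WT-ABA library 2 or any of the mkkk17-ABA libraries (adjusted p between 0.0544 and 0.167). In all, 4 of the 5 tested members of this list were lower and none higher, with a median of -0.86. The shares over all tested miRNAs were 9.16% lower and 23.7% higher. Each of the 4 calls of this list ended in deposited RPM and with the GC correction.

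miR158a is an abundant miRNA of young evolutionary origin. Its guide strand miR158a-3p had 10435, 7215 and 4487 RPM in mkkk17-ABA libraries, against 1551, 1814 and 1057 RPM in WT-ABA libraries, a log2 fold change of 1.44 ± 0.31 (adjusted p = 2.70e-04). Its passenger strand miR158a-5p had 5.7, 7.2 and 4.0 RPM in mkkk17-ABA libraries and 0.4, 0.9 and 0.2 RPM in WT-ABA libraries, a log2 fold change of 2.04 ± 0.44 (adjusted p = 2.70e-04). Both strands were thus higher without overlap, and neither stayed called with the GC correction (0.58 and 0.21). The third entry of the family, miR158b, was not called (0.76 ± 0.37, adjusted p = 0.11).

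Further lists held 1 or 2 calls each, beside 32.8% called over all tested miRNAs. miR827, which targets the ubiquitin ligase NLA in phosphate homeostasis, had 1474, 2347 and 1931 RPM in mkkk17-ABA libraries and 438.0, 658.9 and 695.4 RPM in WT-ABA libraries (log2 fold change 0.85 ± 0.30, adjusted p = 0.020). It was the 1 call among 9 tested phosphate miRNAs, and it was lost without WT-ABA library 3 (adjusted p = 0.072) or mkkk17-ABA library 2 (adjusted p = 0.139), and the GC correction turned its direction (-0.58, adjusted p = 0.18). miR824-5p, which targets AGL16 in the stomatal lineage, had 94.0, 141.9 and 70.0 RPM in mkkk17-ABA libraries and 14.2, 22.7 and 23.6 RPM in WT-ABA libraries, without overlap (log2 fold change 1.46 ± 0.34, adjusted p = 7.19e-04), but the GC correction ended its call (0.85, adjusted p = 0.069). miR390b-5p, which sets off the tasiRNAs of TAS3, had 223.2, 187.9 and 111.1 RPM in mkkk17-ABA libraries and 156.5, 212.4 and 284.9 RPM in WT-ABA libraries, and it was lower after scaling alone (log2 fold change -1.17 ± 0.33, adjusted p = 0.0042), as the 1 call among 6 tested tasiRNA triggers. That call ended with the GC correction (-0.17, adjusted p = 0.77). miR472 targets mRNAs of NLR immune receptors, and its strands were called in opposite directions. miR472-3p had 152.2, 222.2 and 292.6 RPM in mkkk17-ABA libraries and 135.7, 333.9 and 564.7 RPM in WT-ABA libraries (log2 fold change -1.29 ± 0.35, adjusted p = 0.0026), with overlap on both scales. It was lost without WT-ABA library 3 (adjusted p = 0.060). miR472-5p had 6.3, 6.1 and 5.2 RPM in mkkk17-ABA libraries and 1.1, 1.5 and 1.1 RPM in WT-ABA libraries (log2 fold change 1.19 ± 0.40, adjusted p = 0.016), and was lost without WT-ABA library 3, mkkk17-ABA library 1 or mkkk17-ABA library 2 (adjusted p between 0.0513 and 0.0662) and with the GC correction (0.58, adjusted p = 0.28), which kept the call of miR472-3p (-1.30).

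No call was made in 7 lists at this depth. For miR159 and miR319, regulators of MYB and TCP factors, the log2 fold changes of the 5 tested entries lay between -0.07 and 0.32. The abundant miR159a had 8833, 9083 and 5337 RPM in mkkk17-ABA libraries and 2974, 4907 and 4195 RPM in WT-ABA libraries, and after scaling its groups overlapped (0.10 ± 0.27, adjusted p = 0.81), as did those of miR159b-3p (0.09 ± 0.29, adjusted p = 0.84). In deposited RPM both were called higher (0.94 and 0.92, adjusted p = 0.024 and 0.033). miR396a-5p, a regulator of growth regulating factors, had 735.2, 961.2 and 887.9 RPM in mkkk17-ABA libraries and 338.6, 277.7 and 337.3 RPM in WT-ABA libraries, which was a log2 fold change of 0.60 ± 0.31 after scaling (adjusted p = 0.14). miR171a-3p, a regulator of the SCL6 family of GRAS factors, was at -0.80 ± 0.34 (adjusted p = 0.057, and 0.028 with replicate blocks). For the regulators of NF-YA factors (miR169a-5p, -0.23 ± 0.36), of NAC factors (miR164b-5p, -0.02 ± 0.36) and of ATP sulfurylases (miR395f, 0.21 ± 0.37), and for miR822-5p (0.12 ± 0.35), which comes from a hairpin cut by DCL4, adjusted p-values lay between 0.668 and 0.952. miR167a-3p, among the 10 most abundant entries, was not called either (-0.46 ± 0.31, adjusted p = 0.28).

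Of the 31 tested miRNAs in no list, 11 were higher and none lower, beside 23.7% and 9.16% over all tested. Their median log2 fold change was 0.67. The largest differences were those of miR860, miR781b and miR779.2, all of low abundance. miR860 had 4.0, 4.0 and 1.6 RPM in mkkk17-ABA libraries and 0.3, 0.0 and 0.0 RPM in WT-ABA libraries (log2 fold change 2.11 ± 0.51, adjusted p = 9.69e-04). miR781b had 11.7, 9.4 and 6.3 RPM in mkkk17-ABA libraries and 1.5, 1.4 and 0.4 RPM in WT-ABA libraries (1.93 ± 0.42, adjusted p = 2.70e-04). miR779.2 had 7.0, 7.5 and 3.2 RPM in mkkk17-ABA libraries and 0.4, 1.1 and 0.4 RPM in WT-ABA libraries (1.86 ± 0.44, adjusted p = 7.19e-04). The values of these 3 in WT-ABA libraries were close to the floor of 3 reads, and none of the 3 stayed called with the GC correction (0.28, 0.10 and 0.43).

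The balance of 5p and 3p strands does not depend on the scaling between libraries. For hairpins whose strands were called above, miR157, miR393 and miR472 among them, it restates those differences and is no separate evidence. The ratio of 5p to 3p RPM within each library was tested for 44 hairpins with both strands at a mean of at least 1 RPM, and 10 (22.7%) were called, 6 with a higher and 4 with a lower 5p share in mkkk17-ABA. In the miR157a and miR157b hairpins the log2 ratio was 3.16, 2.83 and 2.78 in mkkk17-ABA libraries and 0.60, -0.16 and -0.42 in WT-ABA libraries. The 5p strand was thus in clear excess in mkkk17-ABA and about as abundant as the 3p strand in WT-ABA (difference 2.92 ± 0.53, adjusted p = 3.44e-06). In the miR393a hairpin the log2 ratio was 1.89, 1.59 and 2.61 in mkkk17-ABA libraries and 4.95, 3.98 and 5.18 in WT-ABA libraries, so that the 5p strand dominated less in mkkk17-ABA (-2.67 ± 0.49, adjusted p = 3.44e-06). In the miR472 hairpin it was -4.49, -5.08 and -5.68 in mkkk17-ABA libraries and -6.41, -7.39 and -8.46 in WT-ABA libraries (2.34 ± 0.45, adjusted p = 9.53e-06). The hairpins of miR398b and miR398c (2.07 ± 0.44), miR824 (1.71 ± 0.52) and miR156f (1.53 ± 0.41) had ratios shifted towards the 5p strand, with adjusted p-values between 5.61e-05 and 0.00797. Some 5p entries pool identical mature miRNAs of several hairpins, namely 6 for miR156f-5p, 3 for miR157b-5p and 2 for miR393a-5p. Their ratios are therefore not the strand balance of a single hairpin. The hairpins of miR156a, miR156b, miR156c and miR156d, tested with the same 5p entry as miR156f, were not called. The calls of miR824 and miR156f were lost without WT-ABA library 2 (adjusted p = 0.066 and 0.102), and that of miR824 also without mkkk17-ABA library 2 (adjusted p = 0.103). The count of called hairpins fell to 5 without WT-ABA library 2 and to 5 without mkkk17-ABA library 2. In all 10 called hairpins the strand that gained in mkkk17-ABA was the one of lower GC content, for instance miR157b-5p with 42.9% beside miR157a-3p with 52.4%, and miR393a-3p with 33.3% beside miR393a-5p with 50%. Over the 44 hairpins, some of which share a strand, the difference in log2 ratio and the GC content of 5p minus 3p had a Pearson correlation of -0.60 and a Spearman correlation of -0.58.

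**Figure D3:**
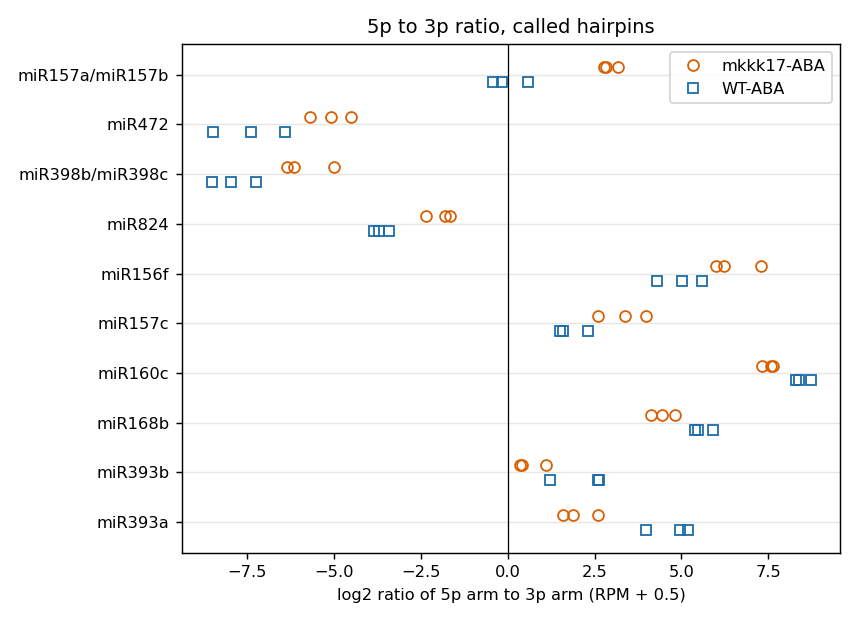
Log2 ratio of 5p to 3p RPM + 0.5 (x axis) in each library for the 10 called hairpins. Circles are mkkk17-ABA libraries and squares are WT-ABA libraries, 3 each; miR157a and miR157b, at the top, lie at 2.78 to 3.16 in mkkk17-ABA and at -0.42 to 0.60 in WT-ABA.

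The fold changes of single miRNAs followed base composition in the same way. Of 30 tested miRNAs with a GC content under 40%, 21 (70.0%) were higher and none lower in mkkk17-ABA, with a median log2 fold change of 1.55. Of 58 miRNAs between 40% and 50%, 10 (17.2%) were higher and 1 lower, with a median of 0.21. Of 43 miRNAs over 50%, none was higher and 11 (25.6%) were lower, with a median of -0.49. In deposited RPM the medians of these classes were 2.17, 0.95 and 0.29, so that the order of the classes was the same while no class was lower in mkkk17-ABA. Across the 131 miRNAs, which share the same 6 libraries and are not independent replicates, fold change and GC content had a Pearson correlation of -0.77 and a Spearman correlation of -0.77, and over the 64 with a mean of at least 10 RPM these were -0.80 and -0.77. By starting base, 22 of 79 miRNAs with U (27.8%) were higher and 6 (7.59%) lower, close to the 23.7% and 9.16% over all tested miRNAs. Of 18 with G none was higher and 4 (22.2%) were lower. By length, 27 of 103 miRNAs of 21 nt (26.2%) and 4 of 28 of other lengths (14.3%) were higher, beside the same 23.7% over all tested. Besides the 12 calls shared with the fit above, the GC correction called 6 further miRNAs. Of these, named here because this correction called them, miR8175 (75.0% GC) was higher (1.45, adjusted p = 0.033), and miR156d-3p (-1.45, adjusted p = 0.0051), miR840-3p (-1.34, adjusted p = 0.0093), miR171c-5p (-1.15, adjusted p = 0.016), miR847 (-1.14, adjusted p = 0.049) and miR162b-3p (-0.96, adjusted p = 0.047) were lower. Before the correction miR8175 was not called and pointed the other way. Its means were 0.81 scaled RPM in mkkk17-ABA and 1.77 in WT-ABA on a scale common to the 24 libraries, a low abundance.

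**Figure D4:**
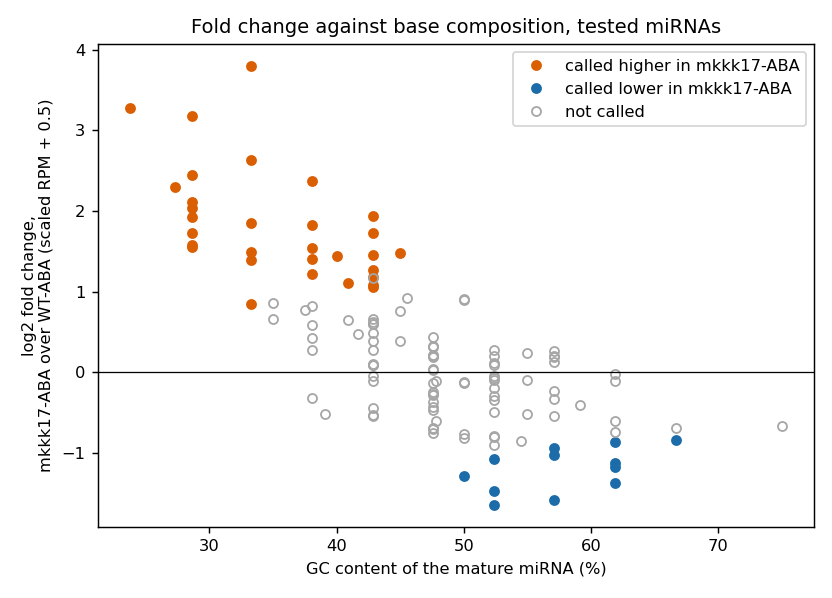
Log2 fold change of mkkk17-ABA over WT-ABA (y axis) against the GC content of the mature miRNA in percent (x axis) for the 131 tested miRNAs. Higher calls lie at a GC content of 45% or less and lower calls at 50% or more.

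Without ABA the same genotypes gave no call. In mkkk17-Mock against WT-Mock, 0 of 122 tested miRNAs (0%) passed the threshold with limma, 23 had an unadjusted p under 0.05, and the smallest adjusted p was 0.071. 7 miRNAs were called when mkkk17-Mock library 1 was left out, and 16 in deposited RPM. The median log2 fold change was -0.04, and its Pearson correlation with GC content over the 122 was 0.11. For miR161.2 the log2 fold change in mock was -1.09 (adjusted p = 0.29), for miR846-3p it was -0.88 (adjusted p = 0.26), and for miR157a-3p it was 0.51 (adjusted p = 0.33).

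The difference between the genotype contrasts with and without ABA was tested over the 12 libraries. It was called for 46 of 125 miRNAs (36.8%), 27 with a higher and 19 with a lower mkkk17 over WT fold change under ABA than in mock. The 5 with the smallest adjusted p-values were miR161.2 (4.74 ± 0.60 on the log2 scale, adjusted p = 1.12e-06), miR846-3p (3.91 ± 0.51, adjusted p = 1.12e-06), miR447a.2-3p (3.62 ± 0.56, adjusted p = 1.93e-05), miR393a-3p (3.13 ± 0.55, adjusted p = 1.13e-04) and miR157a-3p (-2.29 ± 0.43, adjusted p = 2.35e-04). All 5 stayed called with the GC correction, with differences of 3.38, 2.11, 1.37, 1.77 and -1.88, although the total then fell to 29 calls. In RPM as deposited, the difference of miR157a-3p was -0.32 and not called (adjusted p = 0.667), while the others stayed called.

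On a scale common to the 24 libraries, the group that stood out for these miRNAs was WT-ABA rather than mkkk17-ABA. miR161.2 had 81.3, 78.5 and 121.1 scaled RPM in mkkk17-ABA and 19.6, 92.3 and 122.2 in mkkk17-Mock, against 9.31, 6.66 and 5.29 in WT-ABA and 109.1, 134.9 and 149.2 in WT-Mock. Of these 12 libraries, those of WT-ABA were thus low, mkkk17-Mock library 1 came next, and the others were high. miR846-3p had 111.2, 112.4 and 86.3 scaled RPM in mkkk17-ABA and 32.8, 91.1 and 113.0 in mkkk17-Mock, against 18.1, 11.6 and 8.61 in WT-ABA and 128.5, 138.2 and 120.6 in WT-Mock. miR157a-3p had 64.7, 62.1 and 63.1 scaled RPM in mkkk17-ABA and 140.4, 72.7 and 57.7 in mkkk17-Mock, against 206.3, 221.7 and 237.1 in WT-ABA and 62.5, 53.3 and 60.5 in WT-Mock. For this strand WT-ABA was the high group. Of the mkkk17 and WT-Mock libraries, mkkk17-Mock library 1 lay nearest to WT-ABA for each of the 3 miRNAs.

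**Figure D5:**
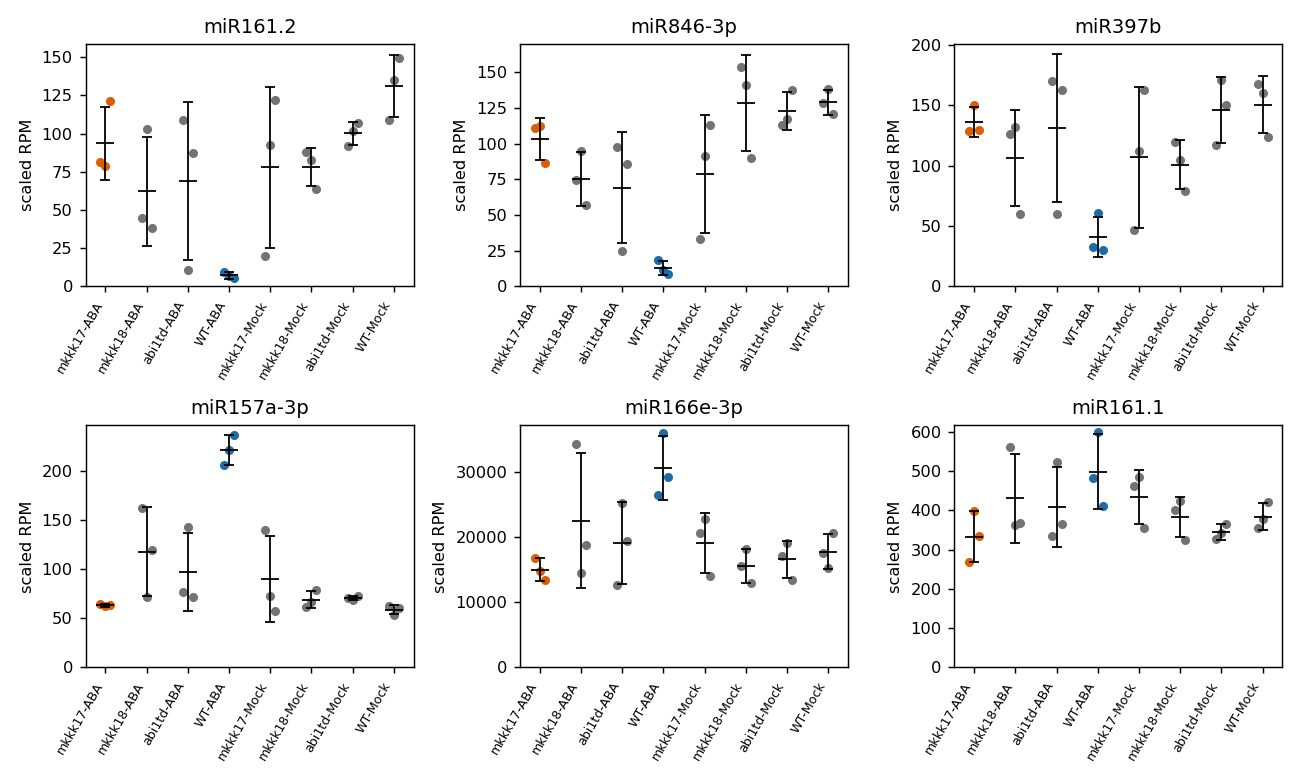
Scaled RPM (y axes, from 0) in the 8 groups (x axes) for 6 miRNAs, with points for libraries and bars for the mean ± SD of 3 libraries. For miR161.2, miR846-3p and miR397b WT-ABA has the lowest group mean and mkkk17-ABA lies near the mock groups, while miR161.1 shows no such gap. For miR397b, mkkk17-Mock library 1, mkkk18-ABA library 3 and abi1td-ABA library 2 lie within the range of WT-ABA. Library 2 of abi1td-ABA (10.3) lies next to WT-ABA for miR161.2.

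In a comparison chosen after these values had been seen, mkkk17-ABA was tested directly against the ABA libraries of the other mutants. Against mkkk18-ABA, 0 of 137 miRNAs (0%) were called with limma and 10 had an unadjusted p under 0.05. Against abi1td-ABA, 0 of 131 (0%) were called and none had an unadjusted p under 0.05. miR161.2 was 0.72 ± 0.40 higher on the log2 scale in mkkk17-ABA than in mkkk18-ABA (adjusted p = 0.53), with 45.0, 103.0 and 38.4 scaled RPM in mkkk18-ABA on the scale of the 24 libraries, and 1.01 ± 0.74 higher than in abi1td-ABA (adjusted p = 0.85), with 109.2, 10.3 and 87.0 scaled RPM in abi1td-ABA. The low value of abi1td-ABA belongs to library 2, which also had a low AU-rich minus GC-rich difference (-1.73). In mkkk18-ABA the lowest value belongs to library 3 (38.4), where that difference was -0.01, and not to library 1 (45.0), where it was -0.98. A relation between the 2 measures was not tested. The spread of the mutant libraries was wide, so these tests do not show that the mutants were alike, and they give no miRNA that set mkkk17 apart from the other mutants under ABA.

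More miRNAs were detected in mkkk17-ABA, in counts that were not matched for the read totals or the summed RPM of the libraries. Values above 0 were found for 210, 211 and 199 sequences in mkkk17-ABA libraries and for 181, 164 and 157 in WT-ABA libraries, and in all 3 libraries of a group for 175 in mkkk17-ABA and 142 in WT-ABA. A further 101 sequences were at 0 in all 6 libraries. 10 sequences were above 0 in all 3 mkkk17-ABA libraries and at 0 in all 3 WT-ABA libraries, and none showed the reverse. The most abundant of these 10, named here after their values were seen, were miR5998a with 1.6, 2.0 and 0.7 RPM, miR829-3p.2 with 0.9, 1.8 and 1.3 RPM and miR5650 with 1.5, 0.8 and 1.2 RPM in mkkk17-ABA libraries. At these depths 0 observed reads still allow an expected count of up to 3 reads, or 0.541 RPM in the shallowest WT-ABA library. Absence of these 10 sequences from WT-ABA was therefore not shown.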

How the data were processed

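RNA was extracted and sequenced by the authors, who clipped adapters, removed short and low-quality reads and counted known miRNAs with mirPRo. The deposited unit is RPM, given by the authors with 1 decimal and separately for every library. Read totals of single libraries were estimated from the steps between values. Whole reads could not be recovered from values with 1 decimal in all 6 libraries, so count tests were not run. Locations are exact matches in TAIR10.1, since the study names TAIR without a build.

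After median-of-ratios scaling, limma 3.58.1 in R 4.3.3 was fitted to log2(scaled RPM + 0.5) with empirical Bayes moderation, a variance trend, Benjamini-Hochberg adjustment and a threshold of 0.05, where the mean reached 1 RPM. The fit was run on simulated data with the same noise for every miRNA and no shift with GC content. It recovered 33 of 40 changed miRNAs with 4 false calls. These data therefore do not show how the fit behaves under the GC shift of the WT-ABA libraries. Summaries used Python 3.11.15, pandas 2.3.3 and SciPy 1.17.1. Alternatives were unscaled RPM, trimmed mean scaling, pseudocounts of 0.1 and 1, no filter, a minimum mean of 5 RPM, replicate blocks, a GC correction (a straight line on GC content removed from the deviations of each library), both together, robust moderation, all 24 libraries in the fit and each library left out. Deviations of same-numbered mkkk17-ABA and WT-ABA libraries had correlations of 0.29, 0.20 and 0.23. Those of same-numbered mkkk17-Mock and WT-Mock libraries had correlations of 0.089, -0.014 and -0.044. No label says what the numbers share, so the main fit did not pair libraries and the replicate block was used as an alternative.

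Named miRNAs were up to 12 called in each direction with the largest fold changes among those whose groups did not overlap (12 higher and 11 lower), the 10 most abundant, up to 3 called in each list (the most abundant where none was called), the 5 with the smallest adjusted p for the difference of contrasts, and the 6 hairpins with the smallest adjusted p. Neighbours on the same hairpin and family members set beside them were added after their values were seen. The comparison and the lists were chosen with earlier results of these data known.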

Additional observations from a re-analysis of the deposited data

Results flagged for a closer look

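For 46 miRNAs the difference between mkkk17 and WT was not the same with and without ABA, by the test of the difference of the contrasts over 12 libraries. The 5 with the smallest adjusted p-values differed by 4.74 (miR161.2), 3.91 (miR846-3p), 3.62 (miR447a.2-3p), 3.13 (miR393a-3p) and -2.29 (miR157a-3p) on the log2 scale, each as mkkk17 minus WT under ABA less mkkk17 minus WT in mock. In all 5 the 3 WT-ABA libraries lay apart from the 3 mkkk17-ABA libraries after scaling. How these differences relate to the shift of AU-rich against GC-rich miRNAs in the WT-ABA libraries was not tested. After the GC correction the 5 differences were smaller but still called, at 3.38, 2.11, 1.37, 1.77 and -1.88 in the same order. The difference of miR157a-3p was not called in RPM as deposited (-0.32, adjusted p = 0.667).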

How the results depend on the processing

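Scaling and base composition moved the results most. In mkkk17-ABA against WT-ABA, 61 miRNAs were called higher and 0 lower in RPM as deposited, 9 higher of 18 called with the GC correction, 16 higher with that correction and replicate blocks, 18 higher of 28 called at a mean of at least 5 RPM, and 22 lower in the fit of all 24 libraries. The cause was not tested, except that fewer miRNAs enter at 5 RPM. With each library left out, the count called ranged from 33 to 47. In the mock comparison the count was 16 in RPM as deposited, 2 without a filter, 3 at 5 RPM, 5 with the GC correction, 2 with that correction and blocks, 4 with robust moderation, 1 with all 24 libraries, and 0 to 7 with each library left out. For the difference of the contrasts it was 72 in RPM as deposited, 29 with the GC correction and 26 with that correction and blocks. Called hairpins numbered 5 to 11 with each library left out.

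With the replicate block alone, 52 miRNAs were called under ABA, 0 in mock and 45 for the difference, with 13 hairpins, and the only call of a named miRNA or hairpin that it changed was that of miR171a-3p.

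Some log2 fold changes changed sign. With the GC correction, with or without blocks, they were 0.14 (miR166e-3p), 0.57 (miR165b), -0.51 (miR159a), -0.52 (miR159b-3p), -0.58 (miR827), -0.013 (miR396a-5p), -0.25 (miR857), 0.36 (miR169a-5p) and 0.98 (miR164b-5p). In RPM as deposited they were 0.37 (miR167a-3p), 0.55 (miR169a-5p), 0.029 (miR171a-3p) and 0.79 (miR164b-5p), and with all 24 libraries -0.057 (miR159a), -0.069 (miR159b-3p) and -0.035 (miR822-5p). With each library left out they ranged from -0.061 to 0.315 (miR159a), -0.10 to 0.28 (miR159b-3p), -0.056 to 0.32 (miR395f), -0.49 to 0.00046 (miR169a-5p), -0.23 to 0.41 (miR164b-5p) and -0.18 to 0.33 (miR822-5p). With the GC correction and blocks, miR165b and miR164b-5p were called higher (adjusted p = 0.039 for each). Without a filter, the calls of miR398a-3p, miR166e-5p, miR166e-3p, miR165b and miR472-5p were lost (adjusted p between 0.0569 and 0.0979). Over 53 named miRNAs, differences and hairpins and all alternatives, 768 of 895 values kept direction and call. This total includes alternatives that changed little, such as the pseudocounts. With the GC correction alone, 20 values kept both, 18 lost the call and 9 changed sign. In RPM as deposited, 25 kept both, 13 lost the call, 5 gained it and 4 changed sign.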
